A study of Mus musculus with 3 samples.

Results

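The immunoglobulin heavy chain locus, Igh, was described here by 2 histone marks in cultured mouse acute lymphoblastic leukaemia cells of the precursor B-cell stage, driven by the Bcr-Abl fusion kinase. Its members were all peaks that shared at least 1 bp with chromosome 12 of the mouse build mm9 from position 114400001 up to, but not including, 117300001. This window of 2.9 Mb was defined by position and not by any measured value, but it was chosen with earlier results of these data known. It held 187 of the 29468 peaks of H3K27ac (acetylation of histone H3 at lysine 27) and 27 of the 18142 peaks of H3K4me3 (trimethylation of histone H3 at lysine 4), 214 of 47610 in all. The study made 1 chromatin immunoprecipitation library for H3K27ac, 1 for H3K4me3 and 1 with control immunoglobulin G, all from the same untreated leukaemia cells grown in medium with 10% serum. The control library is not analysed here. The sources used here do not give the mouse strain, the number of independent leukaemia clones or the state of the Igh alleles. Since each mark has a single library, no value has a replicate error and no difference below was tested between samples. The intervals beside percentages are exact binomial ones (95%, Clopper-Pearson), those beside medians come from order statistics (95%), and all of them take peaks for independent and reflect counting error alone.

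The heavy chain gene is assembled in B-cell precursors by joining 1 variable (V), 1 diversity (D) and 1 joining (J) segment, with loss of the DNA between them on that allele. The assembled exon is transcribed together with a constant (C) gene, first Ighm, and the intronic enhancer Eμ between the J segments and Ighm and a regulatory region beyond Igha act on the locus. H3K27ac marks active enhancers and promoters. H3K4me3 marks active promoters and is bound by the recombinase subunit RAG2, part of the enzyme that cuts V, D and J segments for joining. Both marks are found with transcription of segments that have not yet been joined.

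In the gene order of RefSeq's GRCm38.p6 table, which is another build than that of the peaks and was used for names and order only, the C genes come first, from Igha, Ighe, Ighg2c, Ighg2b, Ighg1, Ighg3 and Ighd to Ighm. They are followed by 4 J segments, then by D segments (10, beside 10 pseudogenes), and then by V segments (121, beside 63 pseudogenes). The nearest protein-coding neighbours outside the segments are Tmem121 before Igha and Zfp386 after the last V segment. Of the 50 named V segments and pseudogenes nearest to the D segments, 31 belong to the families Ighv2 and Ighv5, and of the 100 farthest, 99 belong to Ighv1 and Ighv8. No annotation of mm9 was used here, so no peak was assigned to a segment, an enhancer or a neighbouring gene, and the cells' B-lineage label was not checked against marker genes. The C and J segments lie at the low-coordinate end of the window and the V segments at higher coordinates. No sequence of mm9 was at hand, and none is printed.

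Most acetylated sites of the locus were without H3K4me3. Of the 187 H3K27ac peaks, 163 (87.2%, interval 81.5 to 91.6%) overlapped no H3K4me3 peak, beside 47.7% of all H3K27ac peaks of the list. Outside the Igh window it was 47.5% (interval 46.9 to 48.0%), and in the rest of chromosome 12 it was 53.3% (interval 50.5 to 56.1%). The interval for Igh lay above both others. The reverse did not hold: 25 of the 27 H3K4me3 peaks met H3K27ac, and 2 (7.41%, interval 0.91 to 24.3%) did not, beside 13.9% of the whole H3K4me3 list, so the interval for Igh included the value of the list.

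H3K27ac peaks occurred at 64.5 per Mb in the window and covered 465 kb, or 16.0% of its length. H3K4me3 peaks occurred at 9.31 per Mb and covered 54.2 kb, or 1.87%. In the 500 kb just below the window, H3K27ac peaks occurred at 58.0 per Mb and H3K4me3 peaks at 40.0 per Mb, and in the 500 kb just above it at 20.0 and 8 per Mb. The stretch below the locus thus had H3K27ac nearly as densely as the locus itself and H3K4me3 more densely. Without H3K4me3, there were 56.2 H3K27ac peaks per Mb in the Igh window, 24.0 in the 500 kb below it and 12 in the 500 kb above it.

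The peak score is the authors' own value, with no definition in the sources used here, and it stops at 3100 for most high-scoring peaks. It is used here only within a list. H3K27ac peaks of the locus scored lower than those of the rest of the list: the median was 318 (interval 197 to 490.5) in the Igh window and 714 (interval 692 to 741) outside it. A score of 3100 was reached by 21 of the 187 (11.2%, interval 7.09 to 16.7%), beside 24.1% of the whole list. Scores below 100 were given to 47 of the Igh peaks, 25.1%, beside 17.7% of the list. H3K27ac peaks of the Igk light chain window, described below, also scored low. Their median was 468 (interval 282 to 851), with 15.7% at 3100 or more and 25.3% below 100. Over all scores, the median width was 1703 bp (interval 1453 to 2107 bp) in the Igh window. This did not differ beyond its interval from the 1782 bp outside it. Within each class of score, however, the Igh peaks had the larger median width. In Igh and outside it the medians were 701 and 658 bp at scores of 50 to 100. At 100 to 500 they were 1439 and 1243.5 bp. At 500 to 3100 they were 2874.5 and 2127 bp, and at 3100 or more 6098 and 3491 bp. In the Igk window the medians were 666.5, 1311.5, 3282 and 4957 bp in the same order, also above those outside Igh in each class. The larger widths by class were therefore not particular to Igh. The medians by class have no intervals, and their differences were not tested.

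The H3K4me3 peaks of Igh also scored low, with a median of 306 (interval 92.0 to 1631) in the window, against 3100 in the rest of the H3K4me3 list. Scores of 3100 were given to 6 of the 27 (22.2%, interval 8.62 to 42.3%), beside 50.3% of the list. In the Igk window the H3K4me3 median was 226 (interval 152 to 501), and 11.5% of the peaks reached 3100. A mark present in some of the cells and a weaker mark in all of them cannot be told apart in the peaks of Igh, nor can absence of a mark and loss of the DNA by recombination.

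**Figure D1:**
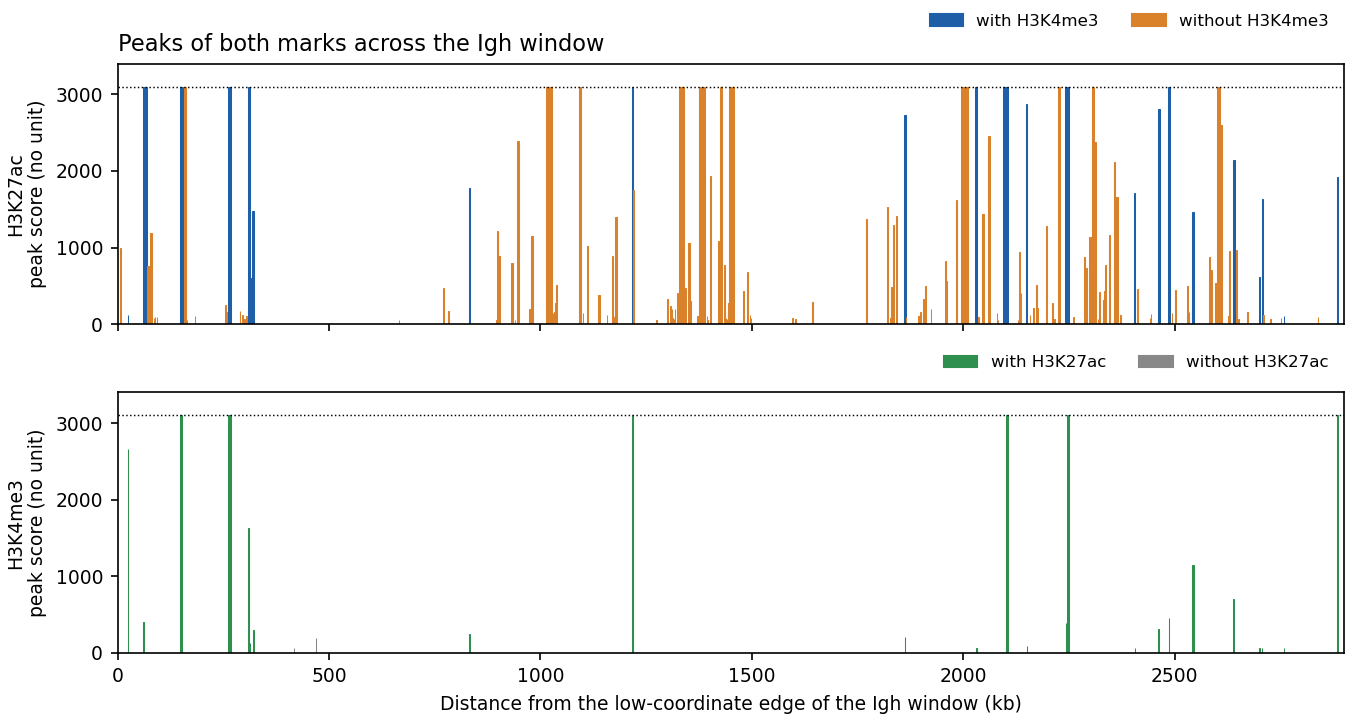
Peaks of H3K27ac (top) and H3K4me3 (bottom) across the 2.9 Mb window, drawn to scale as bars whose height is the authors' score, against the distance in kb from the low-coordinate edge; the dotted line is a score of 3100. Of the 187 H3K27ac peaks, 163 have no H3K4me3, and a stretch of 342 kb without H3K27ac separates the low-coordinate end from the rest.

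The 400 kb at the low-coordinate end, the end where the C and J segments lie, carried both marks in a few strong groups. The limit of 400 kb is a round distance and not an annotated boundary between segments. It contained 26 H3K27ac peaks and 7 H3K4me3 peaks. Each of the 7 overlapped H3K27ac, beside 15617 of the 18142 H3K4me3 peaks of the whole list. Reading upwards from the lower edge, an H3K27ac peak of 2879 bp (114404600 to 114407478, score 987) had no H3K4me3. Next came an H3K4me3 peak of 1619 bp (114423715 to 114425333, score 2667) with an H3K27ac peak of 989 bp (114423986 to 114424974, score 116) inside it. This pair scored high for H3K4me3 and low for H3K27ac, the only pair of the locus in which the H3K4me3 peak enclosed the H3K27ac peak.

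The first large group covered 33.1 kb (114459671 to 114492770) with 7 H3K27ac peaks. It began with a peak of 9383 bp (114459671 to 114469053, score 3100), the widest of the low-coordinate end. The only H3K4me3 there was a peak of 1364 bp (114459793 to 114461156, score 404) at its low-coordinate tip, 14.5% of its length. The rest of that peak and the 6 that followed were acetylated without H3K4me3. Of those, 3 were of intermediate score: 4142 bp from 114469292 (score 752), 2444 bp from 114474353 (score 373) and 4599 bp from 114477136 (score 1189). The last 3 were weak: 508 bp from 114486141 (score 77.3), 984 bp from 114488452 (score 94.5) and 905 bp from 114491866 (score 89.2).

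The second group, of 15.2 kb, had strong H3K4me3. An H3K27ac peak of 7006 bp (114548138 to 114555143, score 3100) overlapped an H3K4me3 peak of 6266 bp (114547030 to 114553295, score 3100), the second widest H3K4me3 peak of the locus. The H3K4me3 peak began below the H3K27ac peak and the H3K27ac peak reached 1848 bp above it. Beyond it lay an H3K27ac peak of 4427 bp (114557483 to 114561909, score 3100), which had no H3K4me3 although it was 4.19 kb from the H3K4me3 peak. Weak H3K27ac peaks of 625 bp from 114555971 (score 70.9) and 564 bp from 114562812 (score 50.6) stood beside it. An isolated H3K27ac peak of 1280 bp (114581997 to 114583276, score 111) followed, without H3K4me3.

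The third group held the pair whose bounds lay nearest to each other in the locus. The H3K27ac peak of 7537 bp (114659936 to 114667472, score 3100) and the H3K4me3 peak of 7474 bp (114659997 to 114667470, score 3100) had starts 61 bp apart and ends 2 bp apart. This is the widest H3K4me3 peak of Igh, and 99.2% of the H3K27ac peak lay under it. Just below it were 3 H3K27ac peaks without H3K4me3, of 1366 bp from 114654951 (score 244), 1617 bp from 114656469 (score 124) and 1439 bp from 114658422 (score 158). The nearest of them ended 75 bp below the main peak.

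The fourth group, of 34.4 kb, closed the low-coordinate end. Its first 5 H3K27ac peaks were short, between 394 and 901 bp, and scored 66.3 to 171 without H3K4me3; they began at 114689019, 114695223, 114699796, 114704554 and 114705570. The last 3 each carried H3K4me3. An H3K27ac peak of 3268 bp (114708778 to 114712045, score 3100) met an H3K4me3 peak of 2228 bp (114708777 to 114711004, score 1631), with starts 1 bp apart. An H3K27ac peak of 2444 bp (114712750 to 114715193, score 600) enclosed an H3K4me3 peak of 650 bp (114713498 to 114714147, score 130). An H3K27ac peak of 4653 bp (114718809 to 114723461, score 1472) enclosed an H3K4me3 peak of 1986 bp (114720109 to 114722094, score 296). H3K4me3 thus scored lower on the last 2 peaks than on the one before them, and so did H3K27ac.

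**Figure D2:**
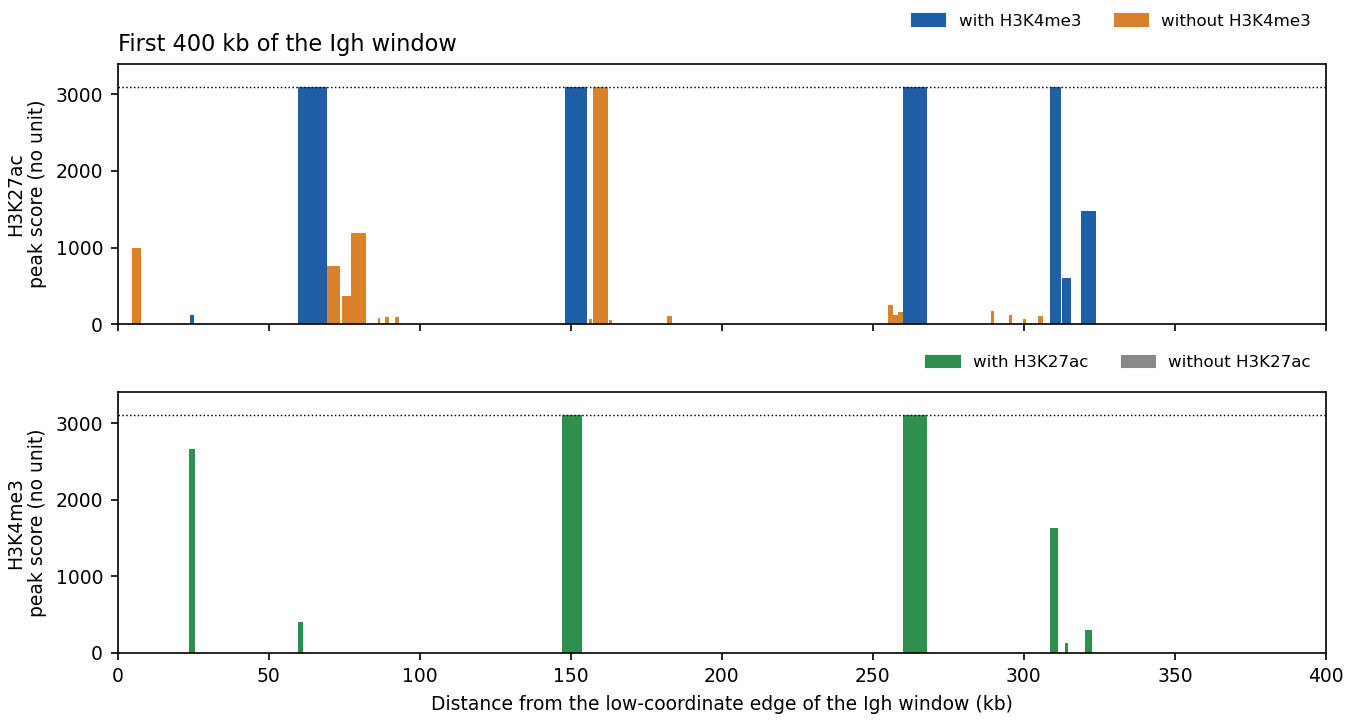
The first 400 kb of the window, with H3K27ac peaks (top) and H3K4me3 peaks (bottom) drawn to scale, height giving the authors' score, against the distance in kb from the low-coordinate edge. The 26 H3K27ac peaks fall into 4 groups and a few single peaks, and all 7 H3K4me3 peaks overlap H3K27ac, beside 15617 of the 18142 in the whole list.

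Beyond this group no H3K27ac peak was called for 342 kb (114723462 to 115065784), the longest such gap of the locus. It is the only stretch of the locus where H3K4me3 stood without H3K27ac, as 2 weak peaks. The first, of 733 bp (114816593 to 114817325, score 69.0), lay 93.1 kb from the nearest H3K27ac peak. The second, of 313 bp (114869050 to 114869362, score 196), lay 146 kb from it and is the narrowest H3K4me3 peak of the window. The 500 kb section up to 115.3 Mb, which takes in most of the gap, had 6 H3K27ac peaks, or 12 per Mb, the lowest density of the 6 sections into which the window was divided. Peaks covered 2.12% of it. Its one H3K27ac peak with H3K4me3 measured 3446 bp (115230654 to 115234099, score 1771) and enclosed an H3K4me3 peak of 1489 bp (115232086 to 115233574, score 247).

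The sections from 115.3 to 116.3 Mb had almost no H3K4me3, and the first of them was among the most densely acetylated of the locus. From 115.3 to 115.8 Mb, 46 of 47 H3K27ac peaks (97.9%, interval 88.7 to 99.9%) had none, and from 115.8 to 116.3 Mb 27 of 28 (96.4%, interval 81.7 to 99.9%). H3K27ac covered 24.0% of the first of these sections and 12.2% of the second, while H3K4me3 covered 0.45% and 0.21%. The densest 100 kb of the window, from 115.7 to 115.8 Mb, held 21 H3K27ac peaks over 49.5 kb and no H3K4me3. Each section had a single pair of marks. In the first section, an H3K27ac peak of 3079 bp (115615865 to 115618943, score 3100) enclosed an H3K4me3 peak of 2233 bp (115616525 to 115618757), also at 3100. In the second, an H3K27ac peak of 3589 bp (116260791 to 116264379, score 2729) enclosed an H3K4me3 peak of 1063 bp (116262101 to 116263163, score 213). At the first of these places each mark thus reached 3100, where most high scores of its list stop. At the other the H3K4me3 score was low within its list. The 2 H3K4me3 peaks were 643 kb apart with none between them.

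At the high-coordinate end H3K4me3 returned. From 116.3 to 116.8 Mb, 43 of 47 H3K27ac peaks (91.5%, interval 79.6 to 97.6%) had no H3K4me3, and 5 H3K4me3 peaks were called. From 116.8 Mb to the upper edge, 23 of 33 (69.7%, interval 51.3 to 84.4%) had none, and 10 H3K4me3 peaks were called. The first of these sections had the highest H3K27ac coverage of the 6, 27.9%. At the low-coordinate end 19 of 26 H3K27ac peaks (73.1%, interval 52.2 to 88.4%) were without H3K4me3, an interval that overlapped those of all the other sections except 115.3 to 115.8 Mb. Over the 2.5 Mb beyond the first 400 kb together, 144 of 161 were without it (89.4%, interval 83.6 to 93.7%).

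H3K4me3 covered 5.40% of the first 400 kb, with 17.5 peaks per Mb, and 1.30% of the remaining 2.5 Mb, with 8 peaks per Mb. H3K27ac occurred at 65.0 peaks per Mb over 16.5% of the first 400 kb, and at 64.4 per Mb over 16.0% of the remainder. The value for the remainder averages sections that ran from 12 to 94 H3K27ac peaks per Mb. The highest-coordinate 500 kb had 10 H3K4me3 peaks, covering 2.78% of its length, beside 7 in the first 400 kb. None of these differences was tested.

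**Figure D3:**
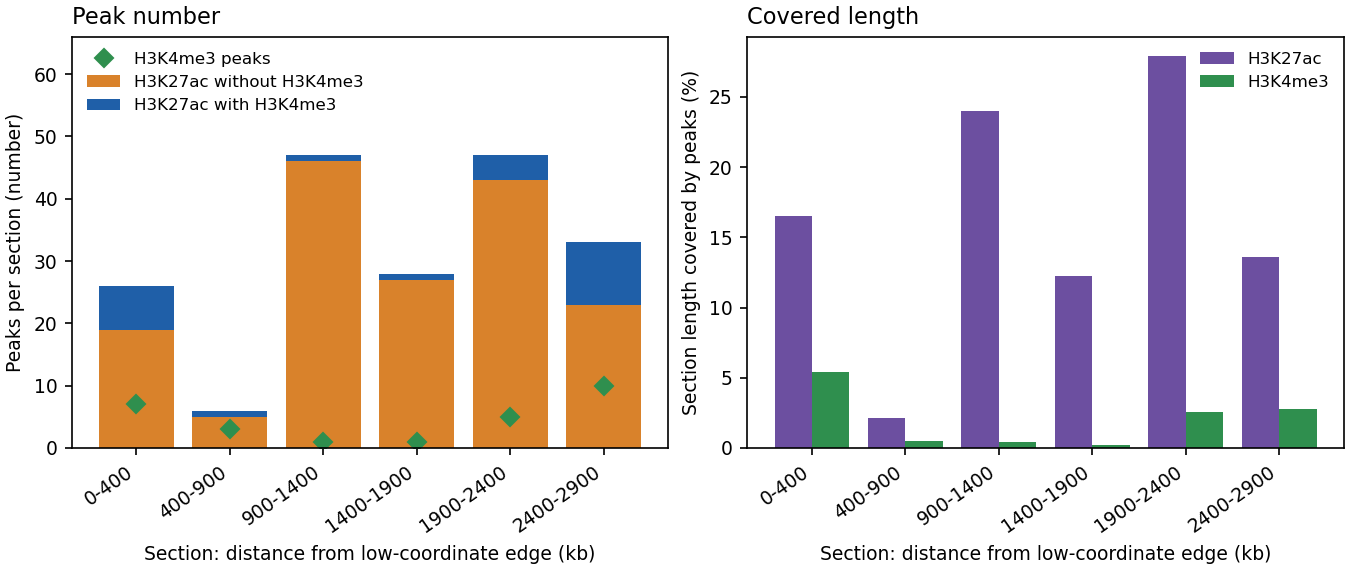
Left, number of H3K27ac peaks without (orange) and with (blue) H3K4me3, stacked, and number of H3K4me3 peaks (diamonds), in the first 400 kb and in 5 sections of 500 kb, by distance from the low-coordinate edge. Right, percentage of each section's length covered by H3K27ac and H3K4me3 peaks; the 400 to 900 kb section is lowest for H3K27ac at 2.12%, and H3K4me3 coverage is highest in the first section at 5.40%.

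The 10 widest H3K27ac peaks of the locus were also its 10 highest-scoring, since all scored 3100 and ties were ordered by width. The widest, 17.5 kb (116394880 to 116412344), had no H3K4me3 and was 19.0 kb from the nearest. It was followed by 14.9 kb (115774652 to 115789522), 14.6 kb (115413211 to 115427806) and 11.4 kb (115845358 to 115856767), none with H3K4me3 and all more than 100 kb from it. The peaks of 11.0 kb (116494752 to 116505776) and 10.4 kb (116640650 to 116651001) carried H3K4me3. The remaining 4 of the 10 were the 3 strong peaks of the low-coordinate end with H3K4me3, of 9383, 7537 and 7006 bp, and a peak of 6772 bp (115731998 to 115738769) without it.

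Thus 4 of the 6 H3K27ac peaks of 10 kb or more in Igh were without H3K4me3, beside 16.0% of the 307 such peaks of the whole list. Those 4 made up 8.16% of the 49 that the list contains. Peaks of this width were 3.21% of the H3K27ac peaks of Igh, beside 1.04% of the list. These 6 peaks held 17.1% of the H3K27ac length of the locus.

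Among the 21 Igh H3K27ac peaks at a score of 3100, 12 (57.1%, interval 34 to 78.2%) had no H3K4me3, beside 9.18% of all H3K27ac peaks with such a score. They measured 3.91 to 17.5 kb, and the nearest H3K4me3 peak was 4.19 to 227 kb away (median 111 kb). The other members of the 12, not among the 10 widest, were the 4427 bp peak of the second group described above and 6 more. Those lay at 115490228 to 115496143 (5.92 kb), 115727961 to 115731870 (3.91 kb), 115823901 to 115828995 (5.10 kb), 116623492 to 116629589 (6.10 kb), 116703781 to 116709396 (5.62 kb) and 117000714 to 117006313 (5.60 kb). All 7 of the 12 that lay between 115.3 and 116.3 Mb were over 100 kb from H3K4me3, and none of the other 5 was.

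The lack of H3K4me3 was seen in every score class. In Igh, all 47 H3K27ac peaks scoring 50 to 100 were without H3K4me3 (interval from 92.5%), against 84.3% (interval 83.3 to 85.3%) in the rest of the list without the Igk window described below. At scores of 100 to 500 the share was 95.2% (interval 86.7 to 99.0%) in Igh and 72.2% (interval 71.2 to 73.2%) in the rest. At scores of 500 to 3100 it was 78.6% (interval 65.6 to 88.4%) in Igh and 34.3% (interval 33.4 to 35.3%) in the rest. At 3100 or more it was 57.1% in Igh and 8.80% (interval 8.15 to 9.49%) in the rest. The share fell with the score in both, and the intervals did not overlap in any of the 4 classes. The share was thus higher in Igh than in the rest at each level of score. In the Igk window it was 100, 98.1, 81.5 and 61.3% in the same order, with intervals that overlapped those of Igh. The higher share was therefore not particular to Igh.

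**Figure D4:**
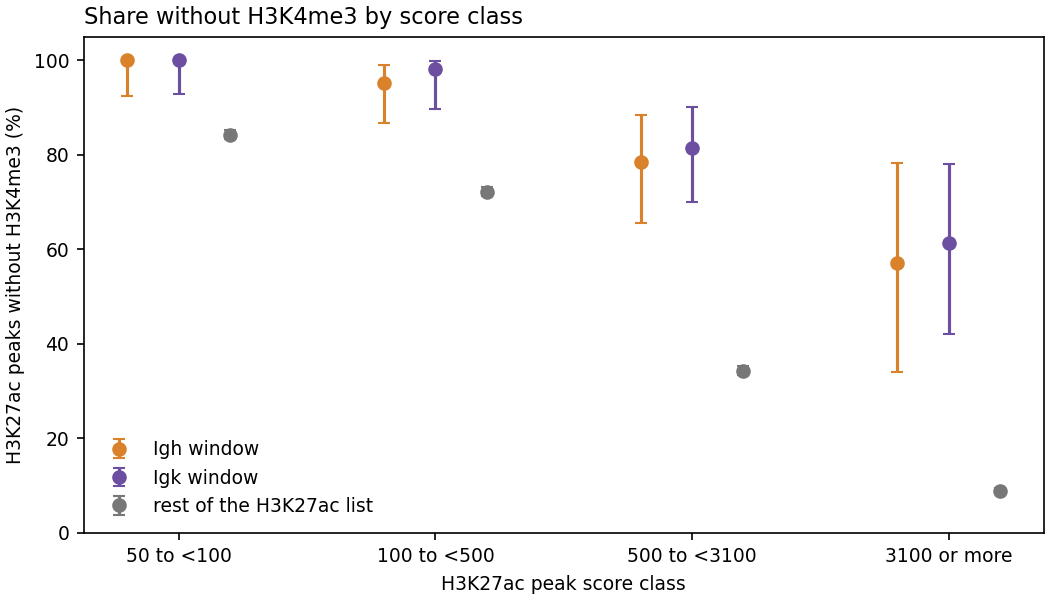
Percentage of H3K27ac peaks without H3K4me3 (y axis) in 4 classes of the authors' score (x axis) for the Igh window, the Igk window and the rest of the H3K27ac list; points are shares and bars exact 95% binomial intervals. In the highest class the values are 57.1, 61.3 and 8.80%.

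Where both marks met in Igh, H3K27ac was usually the wider and H3K4me3 lay within it. Median width was 3504 bp (interval 2389 to 4961 bp) for the 24 H3K27ac peaks with H3K4me3, against 1502 bp (interval 1236 to 1861 bp) for the 163 without. The median score was 2434 for those with H3K4me3 and 217 for those without. Over the whole list the medians ran the same way, at 2245 and 1252 bp and scores of 2414 and 188. In Igk the median widths were 4130 and 1696 bp. The 24 peaks of Igh formed 26 overlapping pairs with 25 H3K4me3 peaks, and in 23 of the 26 the H3K27ac peak was the wider. The H3K4me3 peak lay wholly inside the H3K27ac peak in 19 pairs, and the median share of the H3K27ac peak under it was 41.8%, with a range of 4.79 to 100%. The centre of the H3K4me3 peak was at the higher coordinate in 15 pairs and at the lower in 11. No such counts for the pairs of the whole list are given here.

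The largest shifts between centres occurred in the widest H3K27ac peaks with H3K4me3, which also leave the most room for a shift. In the 11.0 kb H3K27ac peak, an H3K4me3 peak of 4513 bp (116500555 to 116505067, score 3100) began 5803 bp from the low-coordinate end and stopped 709 bp from the high-coordinate end. In the 10.4 kb peak, an H3K4me3 peak of 5311 bp (116645541 to 116650851, score 3100) stopped 150 bp from the high-coordinate end, and a weaker one of 1781 bp (116642391 to 116644171, score 389) lay 1.37 kb below it. In both, H3K4me3 at a score of 3100 occupied the high-coordinate side and left 5803 and 4891 bp of acetylation below it. The 9383 bp peak of the low-coordinate end had the opposite layout, with H3K4me3 at its low-coordinate tip only.

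**Figure D5:**
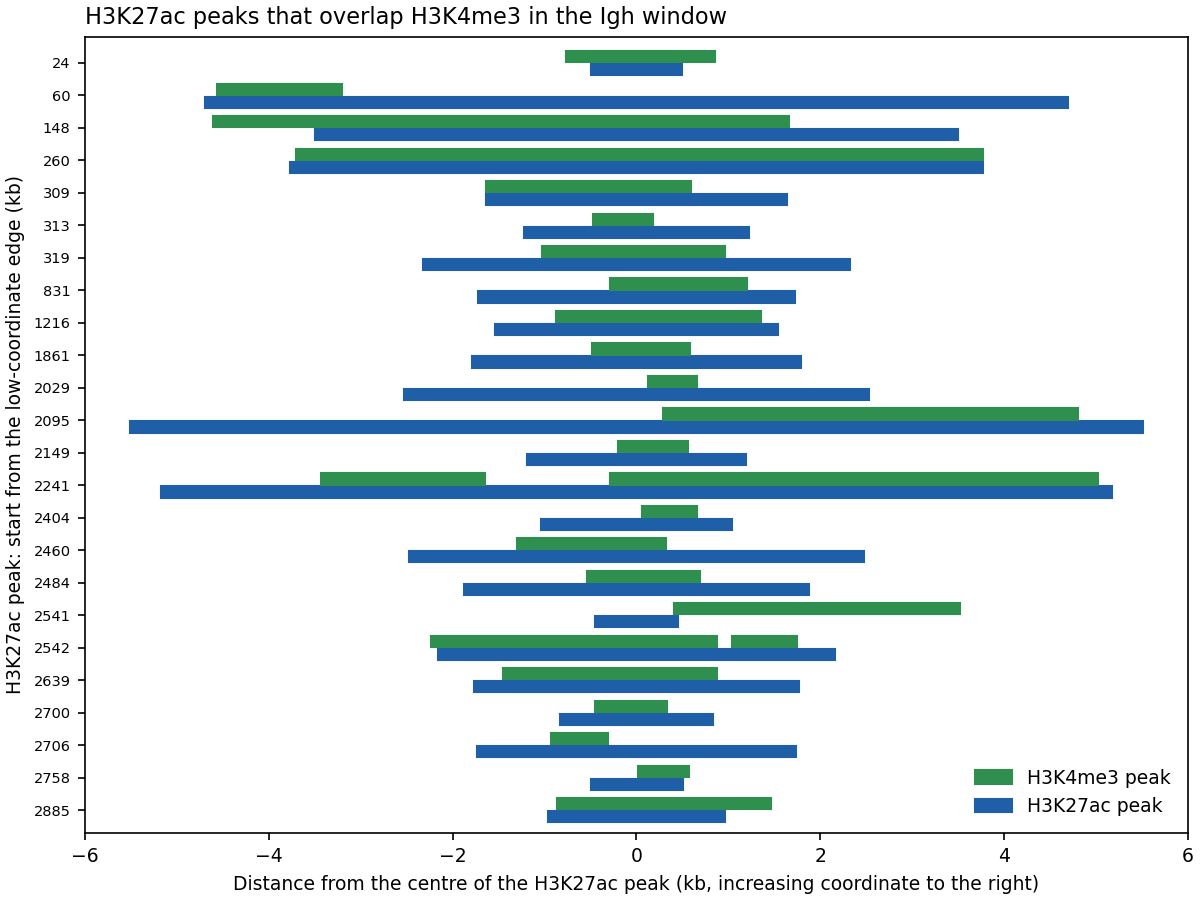
The 24 H3K27ac peaks of the window that overlap H3K4me3 (blue) with the H3K4me3 peaks on them (green), drawn to scale around the centre of each H3K27ac peak in kb; rows run from the low- to the high-coordinate end and are labelled by the start in kb from the low-coordinate edge. H3K27ac is the wider mark in 23 of 26 pairs, and in the 11.0 and 10.4 kb peaks the strong H3K4me3 peak lies on the high-coordinate side. The count for the pairs of the whole list is not given.

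In the Igh window, 8 of the 27 H3K4me3 peaks (29.6%) scored below 100. The share was 26.9% in the Igk window and 11.96% in the whole H3K4me3 list. The H3K4me3 peaks just described at the high-coordinate end scored 389 or 3100. The other 12 H3K4me3 peaks there all overlapped H3K27ac, and 7 of them scored below 100. The weakest were of 612 bp (117106475 to 117107086, score 60.1), 527 bp (116431312 to 116431838, score 61.8), 781 bp (117100030 to 117100810, score 63.4) and 556 bp (117158530 to 117159085, score 65.6). The H3K27ac peaks under them scored 1638, 3100, 612 and 106 in that order, so only the last was below the Igh H3K27ac median of 318. Also below 100 were H3K4me3 peaks of 594 bp (116805251 to 116805844, score 68.5), 714 bp (116945187 to 116945900, score 87.3) and 763 bp (116550303 to 116551065, score 92.0). They stood on H3K27ac peaks scoring 1714, 1458 and 2867, all above that median.

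The intermediate H3K4me3 peaks there measured 1628 bp (116860723 to 116862350, score 306), 1227 bp (116885525 to 116886751, score 453), 2327 bp (117039065 to 117041391, score 706) and 3113 bp (116941911 to 116945023, score 1151). The last spanned a gap between 2 H3K27ac peaks, of 898 and 4313 bp, and was the only H3K4me3 peak of the locus to meet more than 1 H3K27ac peak. The highest-coordinate H3K4me3 peak, of 2334 bp (117285143 to 117287476), scored 3100 on an H3K27ac peak of 1925 bp (117285049 to 117286973, score 1915).

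No peak crossed an edge of the window. Just outside the lower edge lay an H3K27ac peak of 6217 bp (114389615 to 114395831) and an H3K4me3 peak of 3715 bp (114392730 to 114396444), both at 3100. Just outside the upper edge were an H3K27ac peak of 953 bp (117315883 to 117316835, score 220) and an H3K4me3 peak of 1391 bp (117315595 to 117316985, score 1905). The members nearest to the edges are the H3K27ac peak from 114404600 and the H3K4me3 peak from 114423715 below, and the pair from 117285049 above. Whether these outermost members belong to Igh or to the neighbouring genes was not tested. With both edges moved 100 kb inwards 88.1% of the H3K27ac peaks were without H3K4me3.

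H3K27ac peaks were crowded within the locus. The median gap between neighbours was 3.94 kb in Igh, against 15.8 kb in the rest of the list, and 59 of 186 gaps (31.7%) were under 1 kb, against 13.8%. In the Igk light chain window, described below, the median gap was 4.97 kb and 23.4% of gaps were under 1 kb. After the gap of 342 kb the next longest measured 124 kb (116045045 to 116169419), 103 kb (115066320 to 115169292) and 97.1 kb (115898708 to 115995823), none with H3K4me3. The nearest H3K4me3 peak to an H3K27ac peak without that mark lay 45.6 kb away in Igh (median, interval 36.0 to 60.4 kb), against 16.7 kb (median, interval 16.1 to 17.2 kb) in the rest of the list without Igk. More than 100 kb away were 47 of the 163 (28.8%) in Igh, against 12.6% in the rest. In Igk the median distance was 35.4 kb (interval 31.8 to 41.2 kb), an interval that overlapped that of Igh, and 15.6% were over 100 kb away.

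Peaks within 12.5 kb of each other were joined into regions, which were ranked over the whole list by the summed length of their peaks. Those above 11.2 kb were called long, a limit set at the bend of the curve of length against rank, where its scaled slope reaches 1. The Igh window contained 49 regions, 1 of them reaching past the lower edge, of which 16 (32.7%) were long, beside 6.40% of the 16134 regions of the list. The highest-ranked, at place 38, held 44.1 kb in 16 peaks (116685411 to 116772535) without H3K4me3. It was followed at place 92 by 31.5 kb in 16 peaks (115699842 to 115756080) and at place 200 by 24.5 kb in 8 peaks (115820719 to 115856767), both without H3K4me3. Of the 16 long regions 8 had no H3K4me3, beside 6.10% of all long regions. The 4 groups of the low-coordinate end were all long, at places 235, 748, 849 and 929, and each held H3K4me3.

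The locus most like Igh in kind is that of the kappa light chain, Igk, taken as chromosome 6 from position 67500001 up to, but not including, 70700001. The shares of H3K27ac peaks without H3K4me3 were close, 87.2% in Igh and 87.4% (interval 81.9 to 91.7%) in Igk, as were the H3K27ac densities of 64.5 and 61.9 per Mb and the coverages of 16.0 and 16.1%. Peaks of 10 kb or more numbered 6 of 187 in Igh and 1 of 198 in Igk. Long joined regions were 16 of 49 (32.7%) in Igh, 8 of them without H3K4me3, and 12 of 68 (17.6%) in Igk, 3 of them without. H3K4me3 covered 1.87% in Igh and 1.18% in Igk, and peaks at a score of 3100 were 6 of 27 in Igh and 3 of 26 in Igk. These differences between 2 stretches of 1 library were not tested.

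The number of H3K27ac peaks without H3K4me3 in Igh, 163, was above that in each of the 917 stretches of 2.9 Mb, laid end to end along every chromosome, that did not touch the locus. Their median was 12. The highest count, 142, was in a stretch overlapping Igk, and the highest outside both loci was 84, on chromosome 8 (72500001 to 75400000). The Igh window was placed around the locus, whereas these stretches were not placed around anything. The Igk window, placed around its own locus, held 173 such peaks in 3.2 Mb, or 54.1 per Mb, beside 56.2 per Mb in Igh. The other 2 stretches of the same grid, which touch the locus and are not among the 917, held 106 and 88.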

How the data were processed

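H3K27ac and H3K4me3 were measured in 1 library each, and sample titles gave the groups. The peak caller was MACS and the build mm9, per the submitters' processing notes. The sources used here do not give the MACS version, the aligner, the role of the control library or the treatment of reads that match several near-identical V segments. The deposited values are 1 score per peak, which the authors do not define. Depth is unknown. Where near-identical segments share reads, the place of a peak among them is uncertain.

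Members were selected by position, and positions are counted from 1. Overlap meant at least 1 bp. Sections took a peak by its midpoint. Named peaks were every H3K4me3 peak, the H3K27ac peaks in the first 400 kb, the 10 widest, the 10 highest-scoring and those next to an edge, with H3K27ac peaks that overlap H3K4me3; the 12 peaks at a score of 3100 without H3K4me3, the longest gaps, the densest 100 kb and the stitched regions were picked once values had been seen. The window, lists and sections were chosen with earlier results of these data known. Alternatives covered the score threshold, the overlap rule, joining, list length and window edges. The functions were tested on simulated peaks. Calculations used SciPy 1.17.1, pandas 2.3.3 and NumPy 2.4.6 under Python 3.11.15, and figures Matplotlib 3.10.9.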

Additional observations from a re-analysis of the deposited data

How the results depend on the processing

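Among 27 values under other settings, 23 fell inside the interval given for the main value or, for counts, densities and coverage, within 1.5 times of it, and 4 moved outside; these values have no direction to reverse. With the H3K27ac list shortened to the length of the H3K4me3 list, the share of Igh H3K27ac peaks without H3K4me3 became 77.4% (72 of 93), while over the whole shortened list it was 27.7%. The median width of Igh H3K27ac peaks became 2323 bp with scores of at least 100 and 2430 bp with peaks within 1000 bp joined, both of which leave fewer peaks (140 and 128). Joining within 5000 bp gave 85 stitched regions in place of 49. Scores of at least 100 left 140 H3K27ac and 19 H3K4me3 peaks, and 1 of those 19 was without H3K27ac. The alternative that thresholds the H3K27ac list alone, with a share of 82.9%, was added after the data were seen. No paired analysis was possible because each mark has 1 library and no result comes from a test between samples. The undefined score, the unknown depth and the missing mm9 annotation limit every value. The effect of depth on the peak lists was not tested, and no peak was assigned to a segment.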
